A study of Drosophila melanogaster with 14 samples.

Results

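The genes described here encode dyneins, the motor proteins that walk along microtubules, and were followed by their RNA level in fly testes. They are 9 of the 16078 genes that could be matched across all 14 libraries, taken by gene symbol. Axonemal members number 7 (Dhc16F, Dhc36C, Dhc62B, Dhc93AB, Dhc98D, Dic61B and robl62A), and the other 2 are the cytoplasmic heavy chain gene Dhc64C and the ciliary heavy chain gene btv. A filter on low values kept 12971 genes for testing, among them 8 of the 9 members. Dhc93AB did not pass it.

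Adult testes of Drosophila melanogaster males aged 3 days, raised at 23 °C, gave 2 biological replicates in each of 7 genotypes, with 50 testes for a library, per the labels. The genotypes were wild type (wt), the single mutants bam, can, comr, mip40 and CG9879, and mip40/bam, in which both mip40 and bam are affected. The sources used here give neither alleles nor genetic backgrounds. bam is needed for spermatogonia, the dividing early germ cells, to become spermatocytes, and testes without it fill with such early cells. The products of comr and mip40 belong to the testis meiotic arrest complex, and that of can is a TBP-associated factor made in the testis. Germ cells lacking comr or can halt as spermatocytes.

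Axonemal dyneins form the inner and outer arms on the doublet microtubules of cilia and flagella, and their sliding force bends the sperm tail. Each motor is built on a heavy chain that holds the ATPase and stalk, joined by intermediate and light chains. Cytoplasmic dynein uses the heavy chain of Dhc64C for transport towards microtubule minus ends in most cells, and the heavy chain encoded by btv moves cargo within sensory cilia, a transport that fly sperm do not need for building their tail.

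The values are FPKM, fragments scaled for the length of the transcript and the size of the library, so levels can be set side by side between genes. The confidence limits deposited with the values imply about 3050000 to 4840000 fragments over the genes in 12 libraries and 7490000 and 6930000 in mip40/bam. Transcripts of the mutated gene were at 2.91 FPKM and listed at 0 in bam, against 3.14 and 2.81 in wt, and CG9879 was at 0.756 and 1.3 FPKM in its mutant against 64.0 and 53.4 in wt. In their own mutants, comr was at 19.2 and 17.8 FPKM (6.45 and 8.48 in wt), can at 52.6 and 50.1 (15.7 and 15.4 in wt) and mip40 at 20.8 and 20.2 (22.8 and 20.9 in wt), so the levels of these 3 could not check the labels, nor could that of bam in bam replicate 1, which lay between the wt values. In mip40/bam, bam was at 0.913 and 0.665 FPKM and mip40 at 25.8 and 27.4. Spermatocyte and spermatid markers, all 8 of the list measured, summed to 14350.9 to 16062.2 FPKM in wt and CG9879, 2169.9 to 3519.3 in can, mip40 and comr, and 61.2 to 73.6 in bam and mip40/bam. Single markers did not all follow these sums. aly was at 14.1 and 10.7 FPKM in wt but 79.5 and 74.1 in comr. twe was at 99.5 and 98.9 in wt but 139.0 and 154.0 in can. In bam most of the sum came from twe (42.2 and 41.9) and aly (18.1 and 18.3). At an adjusted p under 0.05 (limma), 7 markers were lower and 1 higher in comr than in wt (all genes 27.9% and 48.5%). In can 6 were lower and 2 higher (all genes 20.4% and 51%). Early germ line markers (4 of 4 measured) summed to 1133.5 and 1197.2 FPKM in bam, 947.0 and 967.0 in mip40/bam and 58.9 to 166.0 elsewhere, with nos listed at 0 in both libraries of wt, CG9879 and comr. In whole testes, fewer cells of a type and less RNA per cell cannot be told apart. Accessory gland markers stood at 2577.8 to 13018.7 FPKM in wt replicate 1, CG9879 replicate 2, can replicate 1 and comr replicate 2, and at 4.42 to 289.0 in the other 10 libraries, with SP and Acp98AB listed at 0 in mip40. That tissue's part in the results was not tested, and its libraries were left out one by one and together.

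Dhc16F, an axonemal heavy chain gene at X:18064483-18078472 (BDGP6 coordinates, plus strand, 27 exons), was abundant in 4 genotypes and close to 0 in the other 3. It stood at 30.3 and 36.9 FPKM in wt, 36.9 and 34.4 in CG9879, 22.3 and 29.4 in can and 13 and 18.0 in mip40. It fell to 0.0585 and 0.0462 FPKM in comr, 0.0388 and 0.0222 in bam and 0.00514 and 0 in mip40/bam, values that rest on at most 4 fragments each. The libraries of comr, bam and mip40/bam thus sat far below every other library, with no overlap. Against wt, the log2 fold change of FPKM + 1 was -5.03 ± 0.18 (SE) in comr (adjusted p = 6.39e-09, limma) and -5.06 ± 0.18 in bam (adjusted p = 3.41e-09, limma). In mip40 it was -1.08 ± 0.18 (adjusted p = 0.000368, limma). The can difference of -0.37 ± 0.18 did not pass (adjusted p = 0.0893, limma), although both can libraries lay below both wt libraries. It did pass with median-of-ratios factors (-1.52, adjusted p = 7.97e-05, limma), with quantile normalization (-1.1, adjusted p = 0.00399, limma) and without can replicate 2 (-0.56, adjusted p = 0.0322, limma). Median-of-ratios factors rest on the median ratio over only those genes that are above 0 in all 14 libraries. The authors' deposited table gave the Dhc16F transcript 42.0 FPKM in wt and 17.6 in can, with a q-value of 0.000214. For bam the authors' values were 42.5 in wt and 0.02, with a q-value of 0.206, which they did not call significant.

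Dhc62B, another axonemal heavy chain gene (3L:1759172-1771758, minus strand), was at 21.2 and 22.2 FPKM in wt and 23.4 and 23.0 in CG9879. It was at 8.18 and 9.6 FPKM in can and 3.08 and 2.85 in mip40, and it was listed at 0 in both libraries of comr, bam and mip40/bam. The 4 levels that are above 0 did not overlap with one another, and can and mip40 fell in turn below wt. The log2 fold change was -1.2 ± 0.11 in can (adjusted p = 7.72e-06, limma) and -2.51 ± 0.11 in mip40 (adjusted p = 5.83e-08, limma). The model also called it lower in comr and bam, for which no fold is given since an exact 0 can be a failed estimate. The authors' deposited table, made per transcript, held 0.653 FPKM for one Dhc62B transcript in bam and 0.7 in comr, against 25.9 and 26.2 in wt. An exon of Dhc62B shares bases with CG8001 on the opposite strand, and the sources used here do not say whether counting used strand.

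Dhc36C, an axonemal heavy chain gene at 2L:17501401-17525515 (plus strand), followed another order, with can at the bottom of the arrested testes. It stood at 55.0 and 58.7 FPKM in wt, 45.4 and 39.2 in CG9879, 36.8 and 39.8 in mip40 and 29.7 and 33.4 in comr. In can it was at 7.28 and 10.5 FPKM, overlapping bam at 10.1 and 8.93, and in mip40/bam at 2.06 and 2.45. Its transcripts were therefore abundant in comr testes, where Dhc16F and Dhc62B were near or at 0. In can testes its FPKM overlapped that of Dhc62B (8.18 and 9.6) and lay below that of Dhc16F (22.3 and 29.4). The log2 fold change against wt was -2.56 ± 0.16 in can (adjusted p = 4.99e-07, limma) and -2.46 ± 0.16 in bam (adjusted p = 2.76e-07, limma). It was -0.83 ± 0.16 in comr (adjusted p = 0.000824, limma) and -0.56 ± 0.16 in mip40 (adjusted p = 0.00929, limma). The mip40 call was lost without mip40 replicate 1 (-0.5, adjusted p = 0.0522, limma) and without wt replicate 2 (-0.51, adjusted p = 0.0511, limma). Set directly against each other, comr was above can by 1.73 ± 0.16 (log2, adjusted p = 1.15e-05, limma), while Dhc16F was below by -4.66 ± 0.18 (adjusted p = 2.2e-08, limma).

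Dhc98D, an axonemal heavy chain gene at 3R:28486953-28519398 (plus strand, 47 exons), varied least of the axonemal members that passed the filter. It was at 34.8 and 41.2 FPKM in wt, 42.2 and 33.8 in CG9879, 36.8 and 39.9 in mip40 and 33.0 and 35.2 in comr. It was at 26.5 and 32.4 FPKM in can, 25.8 and 21.1 in bam and 8.18 and 9.86 in mip40/bam. The libraries of mip40, CG9879 and wt overlapped. Those of comr overlapped with CG9879 and wt but lay below mip40, and those of mip40/bam lay below every other genotype. Testes lacking spermatocytes thus still held it at more than 20 FPKM in bam. Against wt it fell by 0.68 ± 0.16 on the log2 scale in bam (adjusted p = 0.0029, limma). The differences were -0.36 ± 0.16 in can (adjusted p = 0.0662, limma; 0.0405 without can replicate 2), -0.15 ± 0.16 in comr (adjusted p = 0.417, limma) and 0.02 ± 0.16 in mip40 (adjusted p = 0.965, limma). These 3 depend on how libraries are scaled. Median-of-ratios factors moved genes of at least 10 FPKM by a median of -1.16 (log2) in can, -1.21 in comr, -1.09 in mip40 and -1.1 in bam against wt. With them the Dhc98D differences were -1.51, -1.36 and -1.07, all past the threshold (adjusted p = 3.29e-05, 5.37e-05 and 0.00032, limma). The authors' deposited table gave the Dhc98D transcript 43.7 FPKM in wt and 17.5 in can, with a q-value of 0.000214. For comr the authors' deposited table gave 44.7 in wt and 18.6, with a q-value of 0.000253. For mip40 the authors' values were 42.7 in wt and 23.9, with a q-value of 0.000207.

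Dhc93AB, an outer-arm type heavy chain gene at 3R:21024580-21042499 (minus strand), was close to 0 throughout. It was at 0.015 and 0.014 FPKM in wt, 0.107 and 0.0531 in CG9879, 0.0388 and 0.0411 in comr and 0.05 and 0.0754 in mip40/bam. The highest values were 0.375 and 0.71 FPKM in can and 0.596 and 0.483 in bam, with mip40 at 0.187 and 0.231. No library reached 1 FPKM, so it was not tested, and its wt values rest on 1 fragment each. The order of its levels differed from that of the other axonemal heavy chains, with can and bam on top and wt at the bottom. Dhc64C also had bam on top and wt, overlapping CG9879, at the bottom. Its order in between differed, with comr above can.

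Dic61B encodes an axonemal dynein intermediate chain (3L:149679-152589, minus strand). It was at 42.8 and 38.4 FPKM in wt, 43.4 and 38.8 in CG9879, 22.1 and 21.8 in can, 3.79 and 5.11 in mip40 and 1.66 and 1.72 in comr. In mip40/bam it stood at 1.45 and 1.37 FPKM, above the 0.405 and 0.513 of bam. Apart from wt and CG9879, which overlapped, each genotype was separate from the next. The log2 fold change against wt was -0.86 ± 0.13 in can (adjusted p = 0.00024, limma), -2.94 ± 0.13 in mip40 (adjusted p = 5.88e-08, limma), -3.95 ± 0.13 in comr (adjusted p = 4.17e-09, limma) and -4.83 ± 0.13 in bam (adjusted p = 5.45e-10, limma). The bam values rest on about 6 and 7 implied fragments. For transcript RA the authors' values were 50.0 FPKM in wt and 0.143 in bam, with a q-value of 0.311. For can they were 49.5 and 14.6, with a q-value of 0.000214. In mip40 the authors called neither transcript. RA was at 48.2 in wt and 0.0053 (q-value 0.308) and RB at 4.44 and 3.17 (q-value 0.459). In comr RA had a q-value of 0.319 and RB one of 0.0406.

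robl62A, an intronless gene of the roadblock light chain family inside an intron of stet (3L:1477619-1478369, plus strand), had the highest level of the members. It was at 1651.7 and 1712.8 FPKM in wt, 2066.4 and 2202.5 in CG9879, 485.0 and 534.0 in mip40 and 325.0 and 348.0 in can. It was at 45.7 and 48.5 FPKM in comr, 3.13 and 2.72 in bam and 1.13 and 2.85 in mip40/bam. Here mip40 lay above can, as in Dhc36C and Dhc98D and the reverse of Dhc16F, Dhc62B and Dic61B, in which can lay above mip40. Against wt the log2 fold change was -1.72 ± 0.22 in mip40 (adjusted p = 5.61e-05, limma), -2.32 ± 0.22 in can (adjusted p = 7.86e-06, limma), -5.13 ± 0.22 in comr (adjusted p = 2.06e-08, limma) and -8.75 ± 0.22 in bam (adjusted p = 2.98e-10, limma). The difference between mip40 and can, 0.6 ± 0.22, passed with an adjusted p of 0.0445 (limma) but was lost when any 1 of 12 libraries was left out (adjusted p = 0.0579 to 0.166, limma). In bam the level rests on about 11 and 6 implied fragments. The authors' values were 1837.9 FPKM in wt and 1.65 in bam, with a q-value of 0.263. For comr they were 1858.9 and 25.3, with a q-value of 0.000253.

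Dhc64C, the cytoplasmic heavy chain gene (3L:4807368-4825687, minus strand), was lowest in wt and CG9879 and highest in bam. It was at 13 and 15.4 FPKM in wt, 17.1 and 12.2 in CG9879, 19.8 and 21.4 in can and 18.7 and 21.5 in mip40/bam. It reached 34.8 and 39.8 FPKM in comr, 42.6 and 37.3 in mip40 and 50.8 and 50.2 in bam. The libraries of mip40 and comr overlapped, as did those of can and mip40/bam, while bam was above all others. The log2 fold change against wt was 1.77 ± 0.15 in bam (adjusted p = 2.88e-06, limma), 1.43 ± 0.15 in mip40 (adjusted p = 1.78e-05, limma) and 1.34 ± 0.15 in comr (adjusted p = 2.52e-05, limma). In can it was 0.51 ± 0.15 (adjusted p = 0.0135, limma), which turned to -0.61 with median-of-ratios factors and -0.35 with quantile normalization. With median-of-ratios factors the comr value was 0.15 (adjusted p = 0.397, limma), and bam stayed higher by 0.69. The can call was also lost without wt replicate 1 (0.4, adjusted p = 0.0907, limma) and without can replicate 2 (0.46, adjusted p = 0.0686, limma). For can the authors' values were 13.4 FPKM in wt and 11.4 for transcript RA and 4.68 and 3.22 for RC. Their q-values were 0.405 and 0.333. In bam RA was at 27.9 against 13.5 in wt, with a q-value of 0.000197, while RC had a q-value of 0.654. An exon of Dhc64C shares bases with CG18808 on the same strand.

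btv, the gene for the heavy chain that works in sensory cilia (2L:17962625-17982472, minus strand), was low in every genotype. It was at 1.66 and 1.63 FPKM in wt, 1.58 and 1.3 in CG9879, 1.83 and 1.84 in can, 2.06 and 2.27 in mip40 and 2.65 and 3.33 in comr. It was at 0.357 and 0.441 FPKM in bam and 0.124 and 0.143 in mip40/bam, below all other libraries. The log2 fold change against wt was 0.59 ± 0.13 in comr (adjusted p = 0.00207, limma) and -0.92 ± 0.13 in bam (adjusted p = 9.96e-05, limma). With median-of-ratios factors the comr value was -0.27, and with quantile normalization the bam value was 0.31, so neither direction held under every scaling. For comr the authors' values were 2.34 FPKM in wt and 2.14, with a q-value of 0.82. For bam they were 2.31 and 0.295, with a q-value of 0.00357. All 8 neuronal markers were measured and summed to 22.7 and 24.2 FPKM in comr (fd3F listed at 0), 16.3 and 8.72 in bam and 23.9 and 24.9 in wt. The like sums of comr and wt hide opposite changes. nSyb was at 8.76 and 8.32 FPKM in wt and 19.9 and 20.2 in comr. brp was at 11.4 and 12.7 in wt and 0.66 and 0.729 in comr. The part of neurons in the btv level was not tested.

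**Figure D1:**
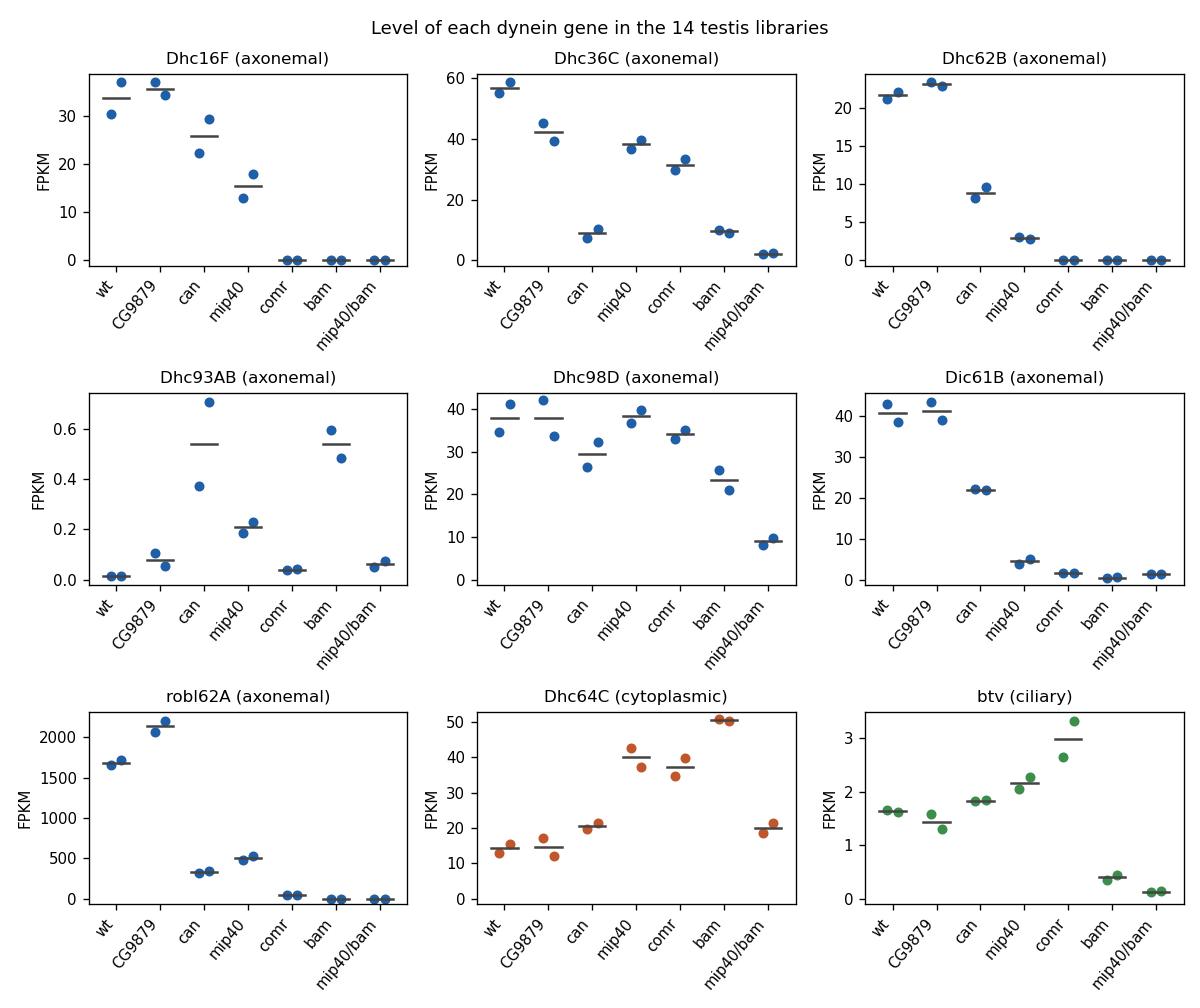
FPKM of each dynein gene (vertical axis, linear and separate for each panel) in the 7 genotypes (horizontal axis). Points are the 2 libraries and the line is their mean. Axonemal genes are blue, Dhc64C orange and btv green. Dhc16F and Dhc62B drop to the base of the plot in comr, bam and mip40/bam, whereas Dhc36C is at 29.7 and 33.4 FPKM in comr and Dhc64C is highest in bam at 50.8 and 50.2.

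Among the 7 heavy chain members, the summed FPKM was mostly axonemal in wt and mostly from Dhc64C in bam. Over the summed FPKM of the 7 heavy chain genes, the 5 axonemal ones held 90.6% and 90.3% in wt and 88.8% and 90.6% in CG9879. They held 75.0% and 78.1% in can, 66.8% and 71.8% in mip40, 62.6% and 61.4% in comr and 41.7% and 37.6% in bam. Dhc64C alone took 8.34% and 8.72% in wt and 57.9% and 61.9% in bam. The mix within the axonemal share also differed. In wt Dhc36C led with 35.2% and 33.4%, in can Dhc98D led with 30.7% and 30.6% ahead of Dhc16F with 25.9% and 27.8%, and in comr nearly all of it came from Dhc98D (32.9% and 31.5%) and Dhc36C (29.6% and 29.9%). These are shares of FPKM and not of fragments, and only within the 7 members. Other axonemal heavy chain genes, such as the Y-linked kl-2, kl-3 and kl-5, were left out. So was CG17150, another axonemal dynein chain gene. It was at 64.8 and 76.0 FPKM in wt, above Dhc36C, and at 0.0657 and 0.0321 in bam.

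**Figure D2:**
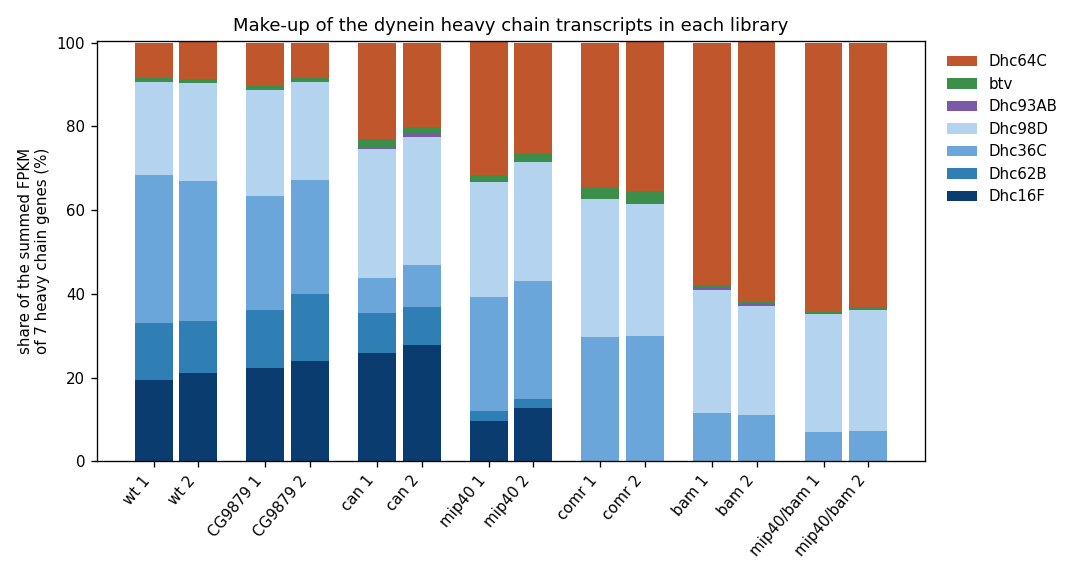
Share of the summed FPKM of the 7 heavy chain members taken by each gene (vertical axis, percent). Bars are the 14 libraries (horizontal axis, genotype and replicate). Blue shades are axonemal genes. The orange part, Dhc64C, widens from 8.34% and 8.72% in wt to 57.9% and 61.9% in bam, and the darkest blue part, Dhc16F, is 25.9% and 27.8% in can and too thin to see in comr.

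Testes lacking bam had lower levels of the axonemal genes tested and of btv, and a higher level of Dhc64C; the btv direction turned with quantile normalization. Of the 8 members tested, 8 were called at an adjusted p under 0.05 (limma), 1 higher and 7 lower, where 78.6% of all tested genes were called, 44.2% higher and 34.4% lower. The median log2 fold change was -4.83 over the 5 axonemal members tested other than Dhc62B, which is listed at 0 in bam and comr, and 0.21 over all genes tested. In comr 7 of 8 were called, 2 higher and 5 lower, against 76.4% of all genes (48.5% higher, 27.9% lower), with a median of -3.95 over the same 5 beside 0.59 over all genes. In mip40 6 of 8 were called, 1 higher and 5 lower, against 73.2% (47.8% higher, 25.4% lower), with a median of -1.08 beside 0.46. In can 5 of 8 were called, 1 higher and 4 lower, against 71.4% (51% higher, 20.4% lower), with a median of -0.86 beside 0.62. The number called is thus near the share of all genes in these 4 comparisons, which use the same wt libraries. The balance of higher and lower genes depends on scaling: of all calls, 56.2% were higher in bam, 63.5% in comr, 65.3% in mip40 and 71.4% in can, but 38.6%, 38.9%, 38.4% and 37.9% with median-of-ratios factors. With those factors 8 of 8 members were called in bam (1 higher, 7 lower), 6 in comr (0 higher, 6 lower), 8 in mip40 (1 higher, 7 lower) and 8 in can (0 higher, 8 lower). The medians of the 5 axonemal members were negative either way. With those factors they were -5.73 in bam, -5 in comr, -2.15 in mip40 and -2 in can. The medians over all genes were then -0.43, -0.2, -0.24 and -0.17. Not every member was lower: without those factors Dhc98D was at 0.02 in mip40.

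CG9879 testes showed no called change in any of the 8 members (11.5% of all genes called, 4.26% higher and 7.24% lower, limma). Only Dhc36C had an unadjusted p under 0.05. Its libraries lay below both wt libraries, at a log2 fold change of -0.42 ± 0.16 (adjusted p = 0.128, limma). robl62A lay above wt in both libraries, by 0.34 ± 0.22 (adjusted p = 0.383, limma). The Dhc36C difference passed when either can library was left out (adjusted p = 0.0492 and 0.0498, limma), and that of robl62A when either mip40/bam library was (adjusted p = 0.034 and 0.0341, limma). When only the wt and CG9879 libraries were fitted, 1 member, robl62A, was called (adjusted p = 0.0447, limma). The CG9879 and mip40/bam libraries were quantified on another annotation release than the other 10, so annotation and genotype cannot be told apart in CG9879 against wt, in mip40/bam against bam, in mip40 against mip40/bam and in the interaction of mip40 loss with bam. The 9 members have the same start and end in both.

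**Figure D3:**
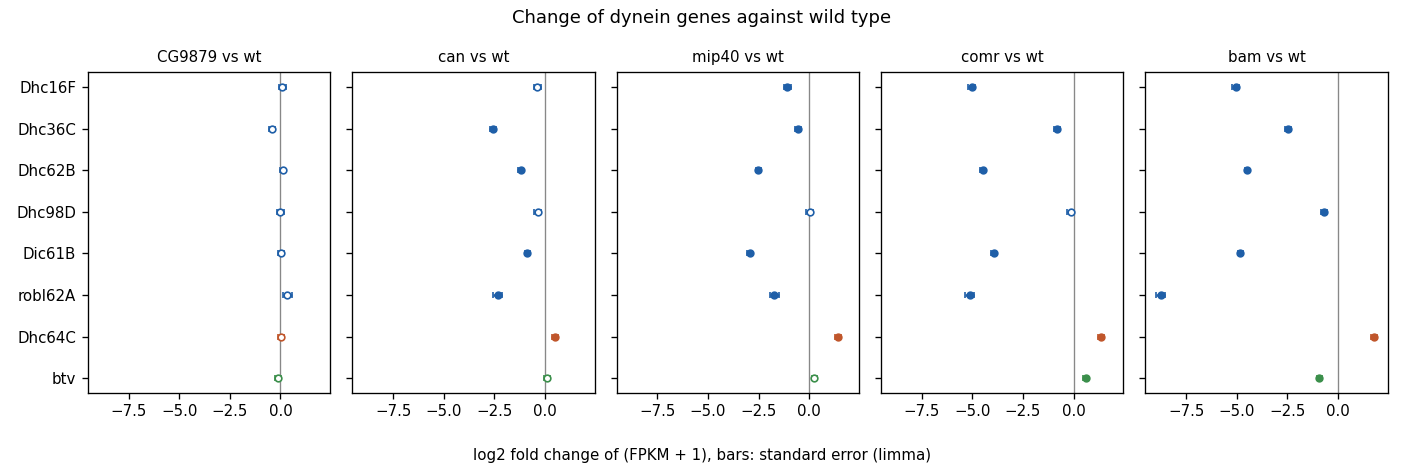
Log2 fold change of FPKM + 1 against wt (horizontal axis) for the 8 tested dynein genes in 5 mutants, with limma standard errors as bars, some hidden by the points. Filled points passed an adjusted p of 0.05. Dhc62B is listed at 0 in comr and bam, so its points there are model values and no measured fold. CG9879 has open points only, and robl62A in bam is farthest from 0 at -8.75.

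Levels taken relative to Dhc64C of the same library do not depend on a single scaling factor per library except through the pseudocount of 1; quantile normalization, which is no such factor, can move them. Over the members, the 5 axonemal heavy chains had a summed FPKM of 10.9 and 10.4 per FPKM of Dhc64C in wt. In CG9879 this ratio was 8.68 and 10.7. It was 3.27 and 3.87 in can, 2.11 and 2.7 in mip40, 1.8 and 1.73 in comr, 0.719 and 0.608 in bam and 0.55 and 0.577 in mip40/bam. The genotypes fell into this order without overlap except for wt with CG9879. On this ratio scale, 6 of the 6 axonemal members tested were lower than in wt in bam, comr, mip40 and can (limma), Dhc62B at its listed 0 in bam and comr included, where 63.4%, 50.1%, 54.7% and 25.6% of all genes were lower in turn. The Dhc16F ratio in can was lost without can replicate 1 (-0.74, adjusted p = 0.0653, limma). Dhc98D, which in FPKM was called lower in bam only, was among them, with log2 changes of -2.44 ± 0.15 in bam (adjusted p = 7.09e-08, limma), -1.48 ± 0.15 in comr (adjusted p = 6.96e-06, limma), -1.42 ± 0.15 in mip40 (adjusted p = 1.18e-05, limma) and -0.87 ± 0.15 in can (adjusted p = 0.000502, limma). With btv as the reference instead, the direction of the Dhc98D ratio in bam turned, as given in the last section. Dhc64C itself was higher in FPKM in bam, comr, mip40 and can, by 1.77, 1.34, 1.43 and 0.51 (log2), so part of each ratio is its own change, and in can that is more than the -0.36 of Dhc98D. In CG9879 0 of 6 were called on this scale, where 4.12% of all genes were called, and only Dhc36C had an unadjusted p under 0.05, at -0.45 ± 0.17 (adjusted p = 0.228, limma).

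**Figure D4:**
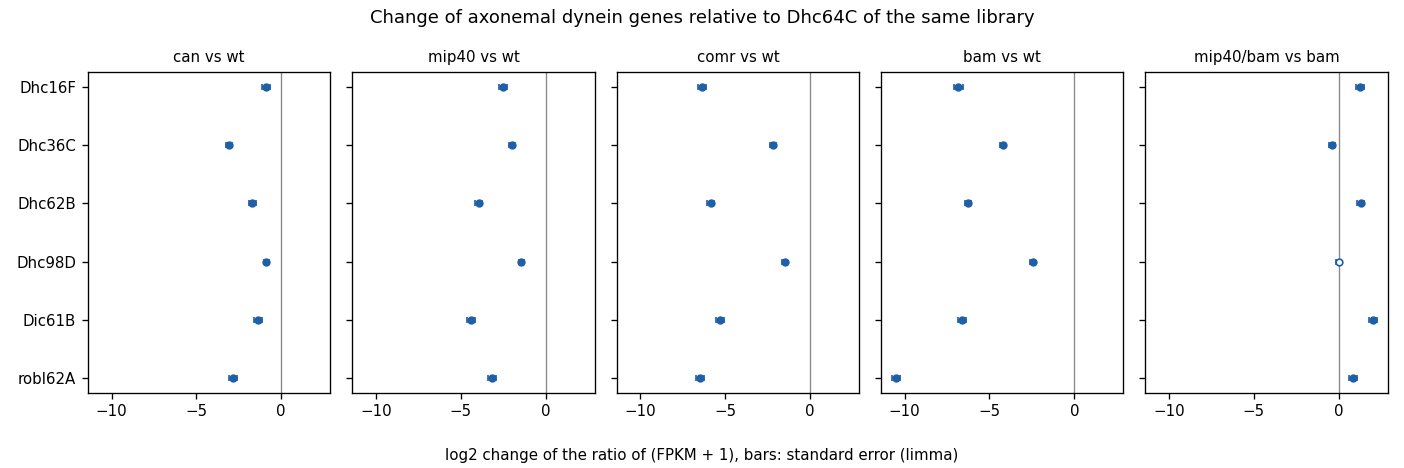
Log2 change of the ratio of each axonemal gene to Dhc64C in the same library, on FPKM + 1 (horizontal axis), in 5 comparisons, with limma standard errors as bars, some hidden by the points. Filled points passed an adjusted p of 0.05. The 6 genes lie left of 0 in can, mip40, comr and bam against wt. In mip40/bam against bam, Dhc16F and Dhc62B are near or at 0 FPKM in both genotypes, so their points show the change of Dhc64C alone.

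Among the arrested testes, comr and can differed in 7 of the 8 members tested, 3 higher and 4 lower in comr, where 54.7% of all genes were called, 22.7% higher and 32% lower (limma). Dhc16F, Dhc62B, Dic61B and robl62A were lower in comr, while Dhc36C, Dhc64C and btv were higher; the btv call was lost without comr replicate 2 (adjusted p = 0.0745, limma). mip40 was higher than comr in 4 members (Dhc16F, Dhc62B, Dic61B and robl62A) and lower in none, where 45.6% of all genes were called, 22.6% higher and 23% lower. The Dhc16F difference was 3.95 ± 0.18 (log2, adjusted p = 1.36e-07, limma) and that of robl62A 3.41 ± 0.22 (adjusted p = 1.62e-06, limma). Between mip40 and can 6 members differed, 3 in each direction, where 51.6% of all genes were called, 19.2% higher and 32.4% lower. Dic61B was lower in mip40 by -2.09 ± 0.13 (adjusted p = 1.87e-06, limma), and Dhc36C was higher by 2.01 ± 0.16 (adjusted p = 7.94e-06, limma). Among the 6 calls, that of robl62A did not hold in 12 of the fits with 1 library left out, as given above, and that of Dhc16F was lost without can replicate 2 or mip40 replicate 1 (adjusted p = 0.0641 and 0.0615, limma), with quantile normalization (0.177) and when only these groups were fitted (0.0573).

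The mutants that hold spermatocytes were also set against testes lacking bam. In comr against bam 6 of 8 members were called, 5 higher and 1 lower, where 59.7% of all genes were called, 34.7% higher and 25% lower. robl62A was higher by 3.62 ± 0.22 (log2, adjusted p = 3.9e-07, limma) and Dhc36C by 1.63 ± 0.16 (adjusted p = 1.17e-05, limma). Dhc16F was not called, at 0.03 ± 0.18 (adjusted p = 0.965, limma), and Dhc62B was listed at 0 in both. The 1 lower call, Dhc64C, was lost without either bam library or comr replicate 1 (adjusted p = 0.0997 to 0.171, limma). Dhc98D was lost without bam replicate 2 or comr replicate 2 (adjusted p = 0.113 and 0.073, limma) and with median-of-ratios factors (0.0551) or quantile normalization (0.368). In can against bam 6 of 8 were called, 5 higher and 1 lower, where 74.6% of all genes were called, 47.5% higher and 27.1% lower. Dhc16F was then higher by 4.69 ± 0.18 (adjusted p = 8.48e-09, limma) and Dic61B by 3.98 ± 0.13 (adjusted p = 3.08e-09, limma), and Dhc36C did not pass at -0.1 ± 0.16 (adjusted p = 0.585, limma). In mip40 against mip40/bam 8 of 8 were higher, where 70.5% of all genes were called, 41.4% higher and 29.1% lower. robl62A was higher by 7.48 ± 0.22 (adjusted p = 1.47e-09, limma) and Dhc36C by 3.6 ± 0.16 (adjusted p = 2.74e-08, limma).

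Loss of mip40 in testes that already lack bam moved 4 of the 8 members, 1 higher and 3 lower, where 36.1% of all genes were called, 16.4% higher and 19.7% lower. Dhc36C changed by -1.69 ± 0.16 (log2, adjusted p = 5.1e-05, limma), Dhc98D by -1.29 ± 0.16 (adjusted p = 0.000227, limma) and Dhc64C by -1.29 ± 0.15 (adjusted p = 0.000195, limma). Dic61B was higher by 0.73 ± 0.13 (adjusted p = 0.00206, limma), from about 6 and 7 implied fragments in bam to 50 and 43 in mip40/bam. Because Dhc98D and Dhc64C had like changes, their ratio moved by 0.01 ± 0.15 (adjusted p = 0.968, limma). Relative to Dhc64C, 5 of the 6 axonemal members were called, 4 higher and 1 lower, where 81.7% of all genes were called, 80.6% higher and 1.13% lower. The reference gene itself fell there, and Dhc16F and Dhc62B, 2 of the 4 higher, were near or at 0 FPKM in both genotypes, so their ratios carry the change of Dhc64C alone. The 1 lower call, Dhc36C (-0.4, adjusted p = 0.0478, limma), turned to 0.15 with a pseudocount of 5 and 0.37 with quantile normalization, and was lost when any 1 of 8 libraries was left out (adjusted p = 0.059 to 0.193, limma). The robl62A ratio was lost without mip40/bam replicate 2 (0.51, adjusted p = 0.0696, limma). With btv or the mean of 5 cytoplasmic chains as the reference, 3 of the 6 were called, 1 higher and 2 lower. The change that goes with mip40 loss differed between testes with and without bam function in 8 of the 8 members, 4 with a higher and 4 with a lower value in the presence of bam (interaction term, limma), where 70% of all genes were called, 44.1% higher and 25.9% lower. With median-of-ratios factors 5 were called, 1 higher and 4 lower, and Dhc36C, Dhc98D and btv were lost. The 4 lower members were low or at 0 in bam, which limits the fall that could show there. Dhc16F, robl62A and Dic61B had means of 0.0305, 2.93 and 0.459 FPKM in bam. For Dhc16F the term of -1.04 is close to its -1.08 in mip40 against wt. For Dhc62B, listed at 0 in bam and mip40/bam, no change without bam could be measured. Hub and cyst cell markers, 5 of the 6 listed and none at 0 throughout a genotype, summed to 104.0 and 123.0 FPKM in bam, 83.5 and 78.5 in mip40/bam and 30.3 to 45.1 elsewhere, and muscle markers, 7 of 7, to 91.1 and 123.0 in bam and 338.0 and 313.0 in mip40/bam. Their part in these differences was not tested.

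Other dynein genes give the members a setting, with lists chosen by gene name. As given above, 44.2% of all tested genes were higher and 34.4% lower in bam, 48.5% and 27.9% in comr, 47.8% and 25.4% in mip40 and 51% and 20.4% in can, and the counts below are to be read against these. Genes listed at 0 enter the list medians at that value. Of 17 other axonemal dynein chain genes 15 were in the files and 14 were tested. In bam 13 were lower and none higher against wt (median log2 fold change -3.99, all genes 0.21, limma), in comr 11 were lower and 1 higher (-1.74, all genes 0.59), in mip40 8 lower and 1 higher (-1.15, all genes 0.46), and in can 6 lower and 2 higher (-0.23, all genes 0.62, or 10 lower and none higher with median-of-ratios factors). Of these 14 genes, 5 were listed at 0 in both libraries of bam, 4 in comr and 1 in mip40. robl37BC, a roadblock family relative of robl62A, was at 153.0 and 133.0 FPKM in wt, 7.03 and 9.93 in can, 1.18 and 0.37 in mip40 and listed at 0 in comr, bam and mip40/bam. CG9313, an axonemal intermediate chain gene, stayed at 187.0 and 217.0 FPKM in mip40 and 168.0 and 189.0 in can, beside 203.0 and 214.0 in wt, where Dic61B was at 3.79 and 5.11 in mip40. Of the Y-linked heavy chain genes, kl-3 was at 7.51 and 8.9 FPKM in wt, 6.92 and 7.9 in can, 2.09 and 3.42 in mip40 and 1.16 and 1.34 in comr, and was listed at 0 in bam. In can, kl-3 was not called (-0.13 ± 0.17, adjusted p = 0.545, limma), whereas kl-2 was lower by -1.12 ± 0.12 (adjusted p = 1.57e-05, limma) and kl-5 by -0.45 ± 0.17 (adjusted p = 0.0417, limma). Reads of Sdic1 and Sdic2, near-identical copies, cannot be told apart with certainty.

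Genes for assembly and docking of axonemal dynein, 9 of 9 tested, were split between higher and lower in the arrested testes. In bam 7 were lower and 1 higher (median -3.92, all genes 0.21, limma), but in comr 4 were lower and 5 higher (0.21, all genes 0.59), in mip40 4 lower and 4 higher (-0.03, all genes 0.46) and in can 4 lower and 3 higher (-0.32, all genes 0.62). The 5 of 9 higher in comr are near the 48.5% of all genes. dtr, an assembly factor gene, was at 95.8 and 95.1 FPKM in wt, 13.1 and 14.5 in can, 1.08 and 1.51 in mip40 and 1.09 and 1.26 in comr. tilB, another assembly factor gene, was at 61.5 and 56.4 FPKM in wt, 114.0 and 129.0 in can and 70.9 and 66.1 in comr, and listed at 0 in bam. Its log2 fold change in can was 1.03 ± 0.08 (adjusted p = 2.4e-06, limma) but -0.14 with median-of-ratios factors, with which 7 or 8 of the 9 were lower in each of bam, comr, can and mip40.

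Regulators of cytoplasmic dynein were mostly higher than in wt in bam, comr, can and mip40, whereas the direction of its other subunits depended on scaling. Of 6 other cytoplasmic dynein chain genes, 5 were higher and 1 lower in bam (median log2 fold change 0.82, limma), and 4 were higher and 2 lower in comr, can and mip40 (1.1, 0.8 and 0.89). With median-of-ratios factors the split was 2 higher to 3 lower for bam and for mip40, 1 to 3 for comr and 1 to 4 for can, and their medians were -0.27 in bam, -0.1 in comr, -0.35 in can and -0.19 in mip40, near those of all genes. Dlic, the light intermediate chain gene, was at 11.4 and 12.3 FPKM in wt and 75.4 and 74.0 in bam. Cdlc2, one of a pair of LC8 light chain genes, was at 793.0 and 819.0 FPKM in wt and at 0.805 and 0 in bam, while the other, ctp, was at 140.0 and 134.0 in wt and 503.0 and 499.0 in bam. Of 6 dynactin and dynein regulator genes, 5 were higher and 1 lower in each of bam, comr, can and mip40 (medians 1.96, 1.94, 1.55 and 1.59), and the medians stayed above 0 with median-of-ratios factors (0.87, 0.74, 0.41 and 0.53), with 5, 5, 4 and 5 higher and 1 lower in each. Lis-1, a dynein regulator, rose by 2.72 ± 0.07 (log2, adjusted p = 3.14e-10, limma) in bam. Genes of intraflagellar transport, the ciliary system in which btv acts, had 12 of 17 tested, with 7 higher and 1 lower in bam and 8 higher and 1 lower in comr (medians 0.57 and 1.67). With median-of-ratios factors 4 were higher and 4 lower in bam (0.11), and 7 higher and 1 lower in comr (0.55). In the main fit btv went the other way from the list median in bam, at -0.92. With quantile normalization the direction of btv turned, as given above. The list median was then 0.85, so both went the same way.

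**Figure D5:**
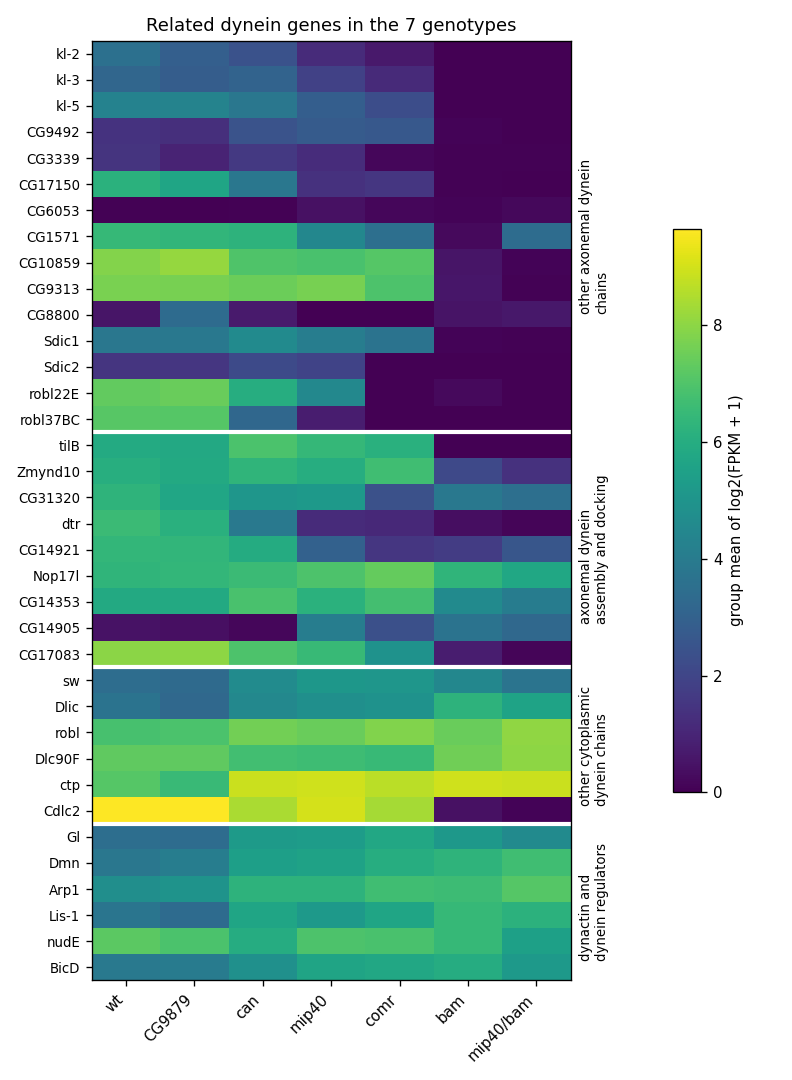
Group means of log2(FPKM + 1) (colour) for related dynein genes (vertical axis, by list) in the 7 genotypes (horizontal axis). Darker colours are lower. robl22E and robl37BC turn dark in comr, where CG10859 and CG9313 stay bright, and Lis-1, Dmn and Arp1 are brighter in bam than in wt.

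The genes most like each axonemal member were sought among 9679 genes by the root mean square difference of the 7 group means of log2(FPKM + 1), each centred on its mean. For Dhc16F they were CG44252 (0.153), CG4956 (0.175) and CR44528 (0.195). For Dhc62B they were CR44864 (0.177), CG13131 (0.214) and CR42696 (0.231), and for Dic61B CR44777 (0.251), ACXB (0.264) and CR44398 (0.265). For robl62A they were sowi (0.207), Hsp60B (0.253) and sinah (0.258). Dhc98D lay nearest to Klp10A (0.193), shi (0.213) and dbo (0.224). Dhc36C had no gene as near, the closest being ps at 0.417, cdi at 0.493 and Dhit at 0.518.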

How the data were processed

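Libraries of polyA RNA were made with a TruSeq kit and run on a MiSeq, per the labels. The submitters' processing notes name TopHat, Cufflinks, Cuffdiff and the builds dm3 and dm6. Versions and the use of strand: not given in the sources used here. For each library the authors deposited FPKM per gene with confidence limits, besides per-transcript Cuffdiff tables whose p-values and q-values are quoted only as the authors' own. The 10 tables with symbols (16745 genes) and the 4 with FBgn identifiers (17480 genes, CG9879 and mip40/bam) were joined by symbol and overlapping position. Gene positions are those of the files, written from 1; exons, strands and overlaps come from the BDGP6.54 annotation, in which Dhc16F was found by symbol.

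Genes reaching 1 FPKM in 2 or more libraries were tested with limma 3.58.1 (R 4.3.3) on log2(FPKM + 1) with an intensity trend, 7 groups and 14 libraries (7 residual and 1.82 prior degrees of freedom), two-sided, with Benjamini-Hochberg adjustment over 12971 genes in each of 12 comparisons and the interaction. The threshold for a call was an adjusted p of 0.05. The second analysis subtracted log2(FPKM + 1) of Dhc64C in the same library. SE is limma's standard error. Fold changes on this scale understate the change of low genes. With 2 libraries a group, p-values rest on spread shared over all groups. The fit was tested on simulated data. Numbers of fragments are implied by the confidence limits and approximate, above all for genes with several transcripts. Python 3.11.15, numpy 2.4.6, pandas 2.3.3 and matplotlib 3.10.9 made tables and plots.

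Named were the 9 members, the 4 genes of each related list with the widest range of group means, kl-2, kl-3 and kl-5, and the 3 genes nearest to each axonemal member that passed the filter, with a highest group mean of at least 10 FPKM. Examples were taken from these, except for CG17150, Sdic1, Sdic2 and single marker genes. The lists were other axonemal dynein chains, axonemal dynein assembly and docking, other cytoplasmic dynein chains, dynactin and dynein regulators, and intraflagellar transport; marker lists covered neurons, hub and cyst cells, muscle, accessory gland, early germ line, and spermatocytes and spermatids. Members and lists were chosen with earlier results of these data known. Alternatives changed the pseudocount, the filter, the scaling, the libraries fitted, the reference gene of the ratio and the replicate block. No sequence is printed.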

Additional observations from a re-analysis of the deposited data

Results flagged for a closer look

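The change that goes with mip40 loss differed between testes with bam function (mip40 against wt) and testes without it (mip40/bam against bam) in 8 of the 8 members tested, by the interaction term (limma, 70% of all genes called). Values are the first change minus the second, on the log2(FPKM + 1) scale. Among the genes whose difference was negative, Dic61B was at -3.67 ± 0.18 (adjusted p = 2.16e-07, limma), since it fell in mip40 and rose in mip40/bam. Its mean in bam was 0.459 FPKM, which limits the fall that could show there. Dhc62B was at -2.51 ± 0.16 (adjusted p = 7.39e-07, limma), but it is listed at 0 in bam and mip40/bam, where no change could be measured. robl62A was at -1.27 ± 0.3 (adjusted p = 0.0045, limma) and Dhc16F at -1.04 ± 0.25 (adjusted p = 0.00459, limma). Both were near 0 FPKM in bam and mip40/bam, which likewise limits the fall that could show there. Without the 4 libraries high in accessory gland markers the robl62A difference was -1.3 and no longer passed (adjusted p = 0.0797, limma).

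Among the positive ones, Dhc64C was at 2.73 ± 0.22 (adjusted p = 3.3e-06, limma), higher in mip40 than in wt and lower in mip40/bam than in bam in every library. Dhc98D was at 1.3 ± 0.22 (adjusted p = 0.000566, limma), Dhc36C at 1.13 ± 0.22 (adjusted p = 0.00132, limma) and btv at 0.56 ± 0.18 (adjusted p = 0.0201, limma). With median-of-ratios factors these 3 were 0.16, -0.05 and -0.24, none past the threshold, so they depend on the scaling. The btv call was also lost without bam replicate 2, mip40 replicate 2 or either mip40/bam library (adjusted p = 0.051 to 0.0599, limma).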

How the results depend on the processing

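Scaling had the widest effect. Median-of-ratios factors moved genes of at least 10 FPKM by a median of -1.1 (bam), -1.21 (comr), -1.16 (can) and -1.09 (mip40) on the log2 scale against wt, and 0.02 in CG9879. Of all calls, 36% were higher in the interaction with them (63% otherwise); equal summed FPKM took mip40/bam against bam from 45.4% to 18%, mip40 against comr from 49.6% to 69% (60.2% with median-of-ratios factors) and mip40 against mip40/bam from 58.7% to 78.1%, and quantile normalization took comr against can from 41.5% to 61.5%, mip40 against can from 37.2% to 56.9%, can, comr and mip40 against the bam-mutant testes to 43.4%, 43.3% and 43.4%, and can against wt to 58.6%. With median-of-ratios factors 8 members were called in can and 5 in the interaction. Directions turned in Dhc98D for mip40 (-1.07), Dhc64C for can (-0.61), btv for comr (-0.27), can (-0.68) and mip40 (-0.49), in the interaction of Dhc36C (-0.05) and btv (-0.24), and in tilB for comr, can and mip40 (-1.01, -0.14 and -0.56), Zmynd10 for comr and can (-0.57 and -0.89), Dlic for can (-0.31) and sw for bam (-0.05). With quantile normalization they turned in Dhc64C for can (-0.35), btv for bam (0.31) and can against bam (-0.53), Dic61B for mip40 against mip40/bam (-0.2), tilB for comr (-0.05), Dlic for can (-0.01) and the Dhc36C ratio in mip40/bam (0.37), and with equal summed FPKM in Dmn for mip40/bam (-0.01). A pseudocount of 5 gave that Dhc36C ratio as 0.15. With btv as the reference, the Dhc98D ratio was 0.24 in bam and -0.98 in mip40/bam and the robl62A ratio -0.15 in mip40/bam. With the mean of 5 cytoplasmic chains the last 2 were -1.21 and -0.38, and either reference left 3 axonemal members called there. Fitting only the compared groups left 2 there and gave 1 in CG9879 against wt. The cause of these shifts was not tested.

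Leaving out 1 library kept 8 members called in bam and 7 in comr against wt, 4 to 6 in can, 5 to 6 in mip40, 0 to 1 in CG9879, 4 to 5 in mip40/bam against bam and 7 to 8 in the interaction; the axonemal ratio calls in mip40/bam ranged from 3 (without mip40/bam replicate 2) to 5. Without the 4 libraries high in accessory gland markers, which leaves a lone library in 4 groups assumed to vary like the rest, 8, 7, 5, 0 and 7 were called in bam, comr, can, CG9879 and mip40. Replicate numbers did not pair samples: over 21 pairs of groups same-numbered libraries correlated from -0.48 to 0.48, above 0.1 in 4. With the number as a replicate block 8, 7, 5, 0 and 6 members were called in bam, comr, can, CG9879 and mip40, and 4 in mip40/bam. Of 2478 values of the members over all settings, 2367 kept direction and side of the threshold. Values under 1 FPKM rest on few fragments, which limits Dhc93AB, Dhc16F in comr, bam and mip40/bam, and Dic61B in bam. The robl62A values rest on about 11 and 6 implied fragments in bam and 5 and 14 in mip40/bam.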
